A study of Mus musculus with 13 samples.

Results

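The genes described here are the receptors and ligands of the VEGF and angiopoietin pathways in mouse lung, 10 genes of the 32544 gene symbols in the deposited count table, found by symbol. They are the receptors Flt1, Kdr, Flt4, Nrp1, Tek and Tie1 and the ligands Vegfb, Vegfc, Angpt1 and Angpt2, and Vegfa is given as context. All 10 members passed the filter on low counts, which left 12496 genes for testing. The libraries came from lungs of wild-type (WT) male C57BL/6J mice, bought at 7 weeks of age, that had breathed 21% oxygen (normoxia, 7 libraries) or 80% oxygen (hyperoxia, 6 libraries) for 5 days. Each lung was perfused with buffer before it was frozen, and whole tissue was sequenced from the 3′ end of polyadenylated transcripts (Quant-seq), without sorting of cells. The labels give no other allele or agent for either group and do not state that each library is a separate mouse, so p-values measure the spread between these libraries.

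VEGF ligands bind receptor tyrosine kinases on the surface of endothelial cells, the cells that line blood and lymphatic vessels. KDR (VEGFR2) carries most of the growth and permeability signal of VEGF-A, FLT1 (VEGFR1) binds the same ligand tightly and can act as a decoy, FLT4 (VEGFR3) receives VEGF-C in lymphatic and growing vessels, and neuropilin 1 (NRP1) is their co-receptor. Angiopoietin 1, made by cells around the vessel, activates TEK (TIE2) and keeps vessels quiescent. Angiopoietin 2, released by endothelial cells, competes with it in many settings, and TIE1 is an orphan receptor that pairs with TEK. The lung holds a very dense capillary bed, where these receptors are known to be abundant.

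The total count per library was 1607111 to 4540288, and members were covered by between 10 counts (Flt4) and 4344 counts (Nrp1) in a library. Levels are given as TMM-scaled CPM (counts scaled to a fixed library total), and differences as log2 fold changes of hyperoxia against normoxia from edgeR's quasi-likelihood test with Benjamini-Hochberg adjustment over the 12496 genes. A gene rose or fell where its adjusted p was under 0.05. The library of hyperoxia replicate 1 stood apart from the others, with correlations of log2 CPM to them of 0.721 to 0.833, against 0.854 to 0.967 among the other 12 libraries. It was kept, and where leaving it out changed the call of a member or list gene named here, or moved its log2 fold change by over 1.5 times, the value without it is given too. The library names fall into the letters B to M (5 normoxic, 3 hyperoxic) and O to S (2 normoxic, 3 hyperoxic), and differences within each letter set are given beside the members.

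After 5 days at 80% oxygen, 1 of the 10 genes rose and 4 fell, and the other 5 did not pass the test. The gene that rose was Angpt2, 2.96-fold, and the genes that fell were the receptors Nrp1, Tek, Tie1 and Flt1, to between 47.5% and 71.2% of their normoxic level. Over all genes tested, 11.8% rose and 10.8% fell. All 6 receptors had a log2 fold change below 0, and the median over the 10 members was −0.39, beside −0.03 over all genes tested. In 4 members, Angpt2, Nrp1, Tek and Tie1, the hyperoxic and normoxic libraries did not overlap, which held for 10.8% of all genes. In whole tissue, fewer endothelial cells and less RNA per cell cannot be told apart. With the study's added requirement of an absolute log2 fold change over 1.5, which 3.91% of all genes met, Angpt2 was the 1 member that passed. The share of the genes that passed and were higher in hyperoxia was 52.3% here, 42.7% in edgeR with library size alone, 47.9% in limma-voom with TMM and 38.8% in limma on the deposited log values, which differ from the fit here in both test and scaling. The medians over all genes were then −0.10, −0.08 and −0.16. The same 4 receptors fell and Angpt2 rose in each of these fits.

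**Figure D1:**
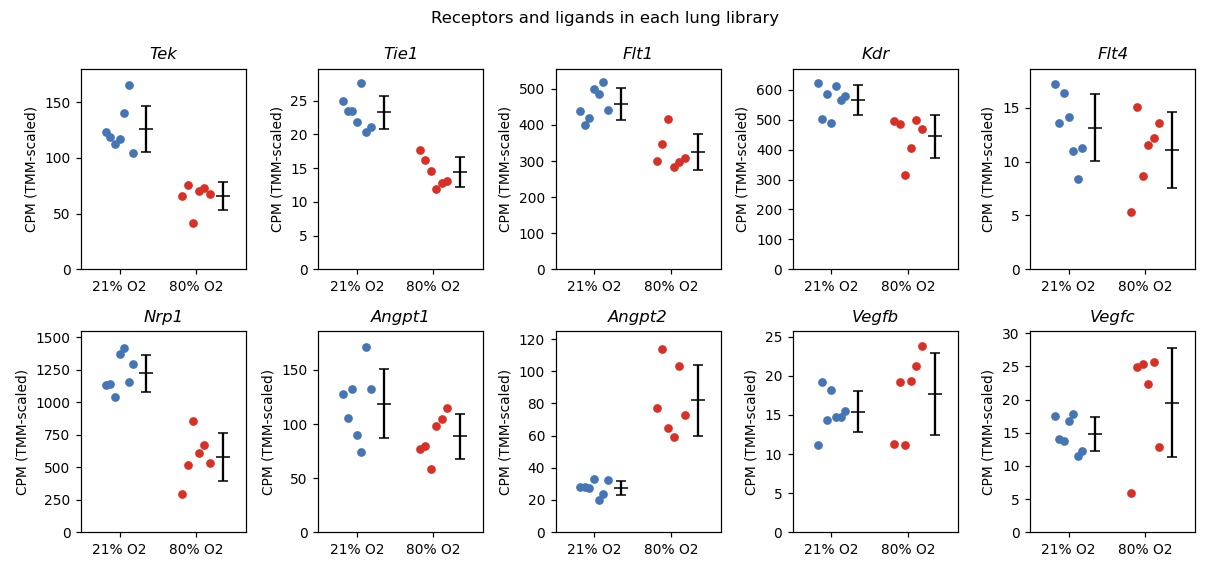
Levels of the 10 genes in TMM-scaled CPM (vertical axes, each from 0) in every library, blue for the 7 libraries at 21% oxygen and red for the 6 at 80%, with the mean and SD as a black bar. Angpt2 lies above every normoxic library in all 6 hyperoxic libraries, whereas Tek, Tie1 and Nrp1 lie below every normoxic library in all 6.

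Tek, the receptor of the angiopoietins, was between 104 and 166 CPM in normoxia (median 119) and between 41.3 and 75.6 CPM in hyperoxia (median 68.9). Every hyperoxic library lay below every normoxic library. The means were 126 ± 20.6 CPM across the 7 normoxic libraries (SD) and 65.7 ± 12.4 CPM across the 6 hyperoxic ones (SD), a log2 fold change of −0.94 ± 0.16 (SE) with an edgeR adjusted p of 0.000566. In mean log2 CPM, hyperoxia minus normoxia was −1.04 for B to M and −0.90 for O to S.

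Tie1, the orphan partner of Tek, was between 20.3 and 27.6 CPM in normoxia (median 23.4) and between 11.8 and 17.7 CPM in hyperoxia (median 13.9), again without overlap. Its log2 fold change was −0.70 ± 0.16 (SE) at an edgeR adjusted p of 0.00572. For the letter sets B to M and O to S it differed by −0.57 and −0.69 in mean log2 CPM. The counts of Tie1 were low, 33 to 73 per library, and its coefficient of variation of 10.6% in normoxia was no larger than the 12.3% that counting alone would give. The ratio of Tek to Tie1 counts was 4.78 to 8.14 in normoxia (median 5.07) and 2.83 to 5.91 in hyperoxia (median 4.91), with overlapping groups.

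Flt1 was between 399 and 518 CPM in normoxia (median 442) and between 284 and 417 CPM in hyperoxia (median 305). In 5 of the 6 hyperoxic libraries it was below every normoxic library, and hyperoxia replicate 3, at 417 CPM, lay within the normoxic range. The means were 458 ± 44.2 CPM across the 7 normoxic libraries (SD) and 326 ± 49.6 CPM across the 6 hyperoxic ones (SD), a log2 fold change of −0.49 ± 0.13 (SE) with an edgeR adjusted p of 0.0119. For B to M and O to S the differences in mean log2 CPM were −0.35 and −0.69. Flt1 also encodes soluble forms without the kinase, which end at other 3′ sites and cannot be told apart from the full receptor in counts per gene symbol.

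Kdr, the main signalling receptor of VEGF-A, was between 490 and 624 CPM in normoxia (median 578) and between 316 and 499 CPM in hyperoxia (median 476). In 4 of the 6 hyperoxic libraries it was below every normoxic library. The log2 fold change was −0.35, with a 95% interval of −0.63 to −0.06, and it did not pass the adjustment over all genes (edgeR adjusted p = 0.0781). Whether Kdr passed depended on the test, the scaling, the filter and 1 library. It passed in 5 of the 22 alternative fits. Its adjusted p was 0.0331 with limma on the deposited log values, 0.0430 with library size alone in edgeR, 0.0484 with limma-voom, 0.0345 in edgeR with at least 10 counts required in every library and 0.0402 in edgeR without hyperoxia replicate 1. In the other fits Kdr did not pass, with adjusted p from 0.0667 (DESeq2) to 0.231 (edgeR with the replicate number as a block). Kdr differed by −0.40 (B to M) and −0.33 (O to S) in mean log2 CPM. The ratio of Flt1 to Kdr counts had a median of 0.792 in normoxia and 0.680 in hyperoxia, and the groups overlapped.

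Flt4, the receptor of VEGF-C, was measured at 10 to 62 counts per library. It was between 8.36 and 17.2 CPM in normoxia (median 13.6) and between 5.36 and 15.1 CPM in hyperoxia (median 11.9), and the groups overlapped. No difference was detectable at this depth (log2 fold change −0.23, 95% interval −0.76 to 0.30, edgeR adjusted p = 0.551), and the letter sets differed in sign (−0.64 for B to M and 0.33 for O to S in mean log2 CPM). Without hyperoxia replicate 1 the log2 fold change of Flt4 was −0.09 (edgeR adjusted p = 0.796).

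Nrp1, the co-receptor that binds VEGF and semaphorins, was between 1042 and 1416 CPM in normoxia (median 1158) and between 298 and 860 CPM in hyperoxia (median 569), without overlap. Its mean went from 1222 ± 139 CPM across the 7 normoxic libraries (SD) to 581 ± 186 CPM across the 6 hyperoxic ones (SD), a log2 fold change of −1.07 ± 0.20 (SE) with an edgeR adjusted p of 0.00105. In mean log2 CPM, Nrp1 in hyperoxia minus normoxia was −1.25 for B to M and −1.03 for O to S. The coefficient of variation of Nrp1 was 11.4% in normoxia and 32.1% in hyperoxia, where counting alone would give 1.69% and 2.31%. The lowest value was that of hyperoxia replicate 1, and without that library the log2 fold change was −0.92.

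Of the ligands, Angpt2 was between 20.2 and 33.0 CPM in normoxia (median 28.0) and between 59.2 and 114 CPM in hyperoxia (median 74.9). The lowest hyperoxic library thus lay above the highest normoxic library. The means were 27.5 ± 4.56 CPM across the 7 normoxic libraries (SD) and 81.9 ± 21.9 CPM across the 6 hyperoxic ones (SD), a log2 fold change of 1.57 ± 0.18 (SE) with an edgeR adjusted p of 1.9e-05, and by p-value Angpt2 was at rank 112 of the 12496 genes. Mean log2 CPM was higher by 1.60 in the letter set B to M and by 1.45 in O to S.

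Angpt1, the agonist of TEK, was between 74.1 and 171 CPM in normoxia (median 128) and between 58.4 and 115 CPM in hyperoxia (median 88.5), and the groups overlapped. The log2 fold change of −0.43 ± 0.20 (SE) did not pass the test (edgeR adjusted p = 0.143). With the letter set as a term it was −0.55 and passed (edgeR adjusted p = 0.0219), and mean log2 CPM in hyperoxia minus normoxia was −0.54 for B to M and −0.51 for O to S. The ratio of Angpt2 to Angpt1 counts in a library was 0.137 to 0.368 in normoxia (median 0.245) and 0.606 to 1.44 in hyperoxia (median 0.998). All 6 hyperoxic libraries had a higher ratio than any normoxic library. Since 1 member of the ratio is the gene that rose, this is a description and was not tested.

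**Figure D2:**
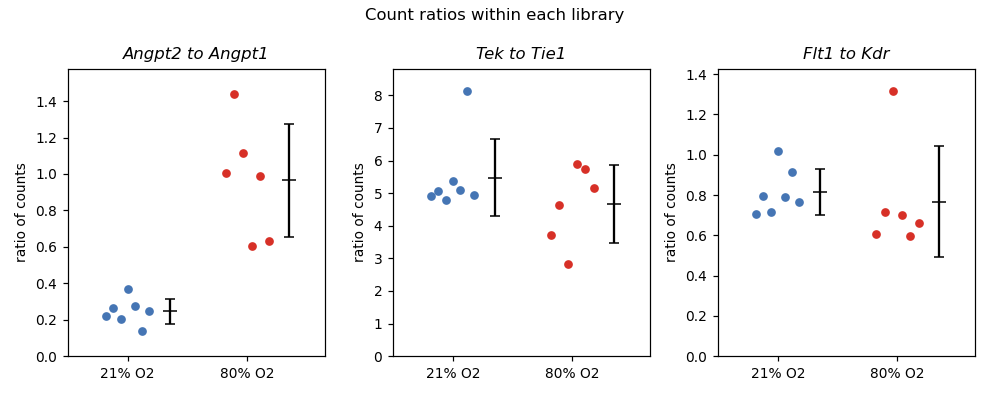
Ratio of the counts of 2 members within each library (vertical axes, from 0), blue at 21% oxygen (n = 7) and red at 80% oxygen (n = 6), with the mean and SD as a black bar. The ratio of Angpt2 to Angpt1 separates the groups, at most 0.368 in normoxia and at least 0.606 in hyperoxia, and the ratios of Tek to Tie1 and of Flt1 to Kdr do not.

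Vegfb, a ligand of FLT1, was between 11.2 and 19.2 CPM in normoxia (median 14.8) and between 11.1 and 23.8 CPM in hyperoxia (median 19.3), a log2 fold change of 0.21 (95% interval −0.25 to 0.67, edgeR adjusted p = 0.536). Vegfc, the ligand of FLT4, was between 11.4 and 17.8 CPM in normoxia (median 14.0) and between 5.90 and 25.6 CPM in hyperoxia (median 23.6), a log2 fold change of 0.42 (95% interval −0.17 to 1.01, edgeR adjusted p = 0.316). In 4 of 6 hyperoxic libraries Vegfc was above every normoxic library, and in hyperoxia replicate 1, at 5.90 CPM, it was below every one. Without that library the log2 fold change of Vegfc was 0.61 and passed (edgeR adjusted p = 0.0345), and that of Vegfb was 0.31 and did not (edgeR adjusted p = 0.255). Within the letter sets B to M and O to S the difference in mean log2 CPM was −0.18 and 0.48 for Vegfb and −0.02 and 0.69 for Vegfc.
Vegfa, the ligand of FLT1 and KDR, was between 269 and 572 CPM in normoxia (median 307) and between 213 and 596 CPM in hyperoxia (median 366). The groups covered nearly the same range, and no difference was detectable (log2 fold change 0.0035, 95% interval −0.53 to 0.53, edgeR adjusted p = 0.995). Without hyperoxia replicate 1, the highest library, it was −0.14 (edgeR adjusted p = 0.681). Normoxia replicates 6 and 7, the normoxic libraries of the letters O to S, held the highest normoxic values, at 572 and 553 CPM, and mean log2 CPM in hyperoxia minus normoxia was 0.18 for B to M and −0.56 for O to S.

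Because most of these receptors mark endothelial cells, each member was also set against the summed counts of 17 pan-endothelial markers, none of them a member. Their sum was 4133 to 6844 CPM in normoxia (median 4949) and 3433 to 6908 CPM in hyperoxia (median 4764), so that the groups overlapped. Relative to this sum, 4 of the 10 members differed between the groups at a p under 0.05, as did 26.0% of all genes tested (two-sided exact permutation test over all 1716 ways to divide the libraries into 7 and 6, not adjusted, 1 test for each of the 10 members). Angpt2 was higher by 1.69 on the log2 scale, and lay above every normoxic library in 6 of 6 hyperoxic libraries (exact permutation p = 0.000583, the smallest p that this test can give). The receptors were lower, with Nrp1 at −0.98 (exact permutation p = 0.00233), Tek at −0.80 (p = 0.00641, exact permutation) and Tie1 at −0.54 (p = 0.00466, exact permutation). Flt1 (−0.35, p = 0.157) and Kdr (−0.21, p = 0.300) did not pass the exact permutation test. Vegfc was at 0.41 (exact permutation p = 0.298), and without hyperoxia replicate 1 it was at 0.76 and passed (exact permutation p = 0.00505, with 28.2% of all genes under 0.05 in the same libraries).
The sum is dominated by Pecam1, an adhesion receptor of endothelial junctions, which made up 43.3% of its counts and was at 2773 ± 862 CPM across the 7 normoxic libraries (SD) and 1605 ± 1299 CPM across the 6 hyperoxic ones (SD) (edgeR adjusted p = 0.198). Without Pecam1 in the sum, 7 of the 10 members differed, as did 36.7% of all genes, and the members added were Flt1 at −0.78 (exact permutation p = 0.00291), Kdr at −0.64 (p = 0.000583, exact permutation) and Angpt1 at −0.70 (p = 0.0274, exact permutation). Leaving Pecam1 out moved every gene by the same amount on the log2 scale. The values of Flt1, Kdr and Angpt1 thus moved with the reference and not with their own counts. Of the markers that remained 4 rose, among them Egfl7 with 15.8% of the full sum, and 4 fell. With the mean log2 CPM of the markers as the reference, 4 members differed, as did 29.7% of all genes. Tie1 was no longer among them (−0.40, exact permutation p = 0.166) and Vegfc was (0.53, exact permutation p = 0.0163). Angpt2, Nrp1 and Tek were thus past the threshold with each of these 3 references.

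**Figure D3:**
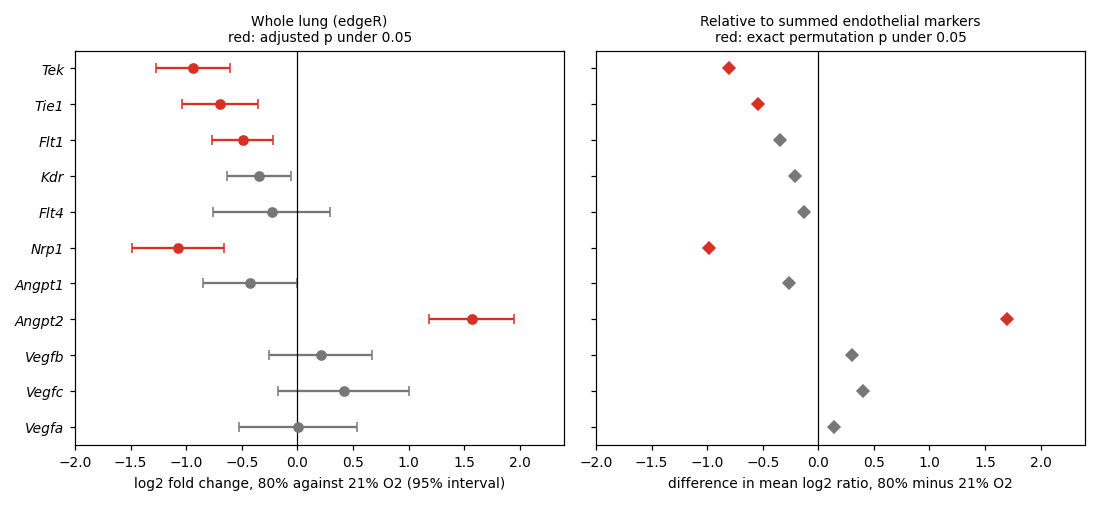
Change of each gene between 80% and 21% oxygen on a log2 scale (horizontal axes), on the left as edgeR log2 fold changes in whole lung with 95% intervals and on the right relative to the summed endothelial markers. Red marks a value past its threshold, with 5 members red on the left and 4 on the right, where Flt1 is grey.

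The promoters of Tek and Flt1 are shown as examples. Both receptors fell and the stretch before their start holds no annotated exon, which was also so for Nrp1, not shown. The sequences are the 250 bases before the start of transcription in RefSeq (GRCm38.p6), written on the strand of the gene, at chr4:94739039-94739288 (plus strand) for Tek and chr5:147726012-147726261 (minus strand) for Flt1. Capitals mark AGGAAG or CGGAAG on either strand, a core sequence that ETS factors, which act in endothelial cells, can bind.
Tek: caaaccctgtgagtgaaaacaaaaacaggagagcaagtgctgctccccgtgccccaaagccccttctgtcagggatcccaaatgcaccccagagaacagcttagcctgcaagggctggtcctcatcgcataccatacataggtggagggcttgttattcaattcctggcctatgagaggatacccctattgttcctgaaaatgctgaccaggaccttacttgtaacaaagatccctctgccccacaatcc
Flt1: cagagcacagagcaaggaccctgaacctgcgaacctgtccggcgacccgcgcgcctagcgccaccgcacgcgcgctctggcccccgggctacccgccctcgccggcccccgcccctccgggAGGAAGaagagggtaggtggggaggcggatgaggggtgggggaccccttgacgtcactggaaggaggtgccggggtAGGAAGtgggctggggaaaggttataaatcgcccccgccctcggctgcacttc
Tek had no match to these letters and Flt1 had 2, at 129 to 124 and 53 to 48 bases before the start. Of 27025 mouse promoters of the same length, 39.0% held at least 1 match, as did 3 of the 8 members for which the table held a promoter (Flt1, Nrp1 and Tie1). The letters ACGTG or GCGTG, the core of the hypoxia response element to which HIF binds, were on either strand in 38.6% of promoters and in 4 of these 8 members (Flt1, Kdr, Nrp1 and Vegfb), and Tek had none. The motifs do not overlap one another in these 2 stretches, and a match is a description of letters, not of binding.
In GENCODE M21 (GRCm38), Tek lies on chromosome 4 from 94739289 to 94874976 and Tie1 from 118471191 to 118490061 on the same chromosome. Flt1 lies on chromosome 5 from 147561604 to 147726011, and Kdr from 75932827 to 75978458. Angpt2 lies on chromosome 8 from 18690263 to 18741562, and overlaps Mcph1 on the opposite strand, with no shared exon. Angpt1, on chromosome 15 from 42424723 to 42676977, shares exon sequence with the antisense gene Gm17473, and since no source states that strand was used in counting, reads of both cannot be told apart. Nrp1 shares exon sequence with the microRNA gene Mir1903 on the same strand. Neither Gm17473 nor Mir1903 has an entry under that symbol in the deposited counts.

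The other genes of these pathways were followed with 6 lists. Of 4 further ligands and co-receptors, 3 were tested and 1 rose. Pgf, placental growth factor, a ligand of FLT1, went from 1.43 ± 0.664 CPM across the 7 normoxic libraries (SD) to 8.31 ± 3.92 CPM across the 6 hyperoxic ones (SD) without overlap (log2 fold change 2.48 ± 0.38, SE, with an edgeR adjusted p of 0.000263). Its counts were 1 to 7 per normoxic library and 10 to 48 per hyperoxic library, so that it passed the filter on low counts through the hyperoxic group, and with at least 10 counts required in every library it was not tested and no gene of the list passed. Figf, which encodes VEGF-D, a ligand of FLT4, had a log2 fold change of 0.09 and the co-receptor Nrp2 one of −0.15, and neither passed, with 0.28 and −0.07 when hyperoxia replicate 1 was left out.

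Of 14 genes of the TIE2 axis 13 were tested, of which 3 rose and 3 fell (median log2 fold change 0.01, −0.03 over all genes). Ptprb, the endothelial phosphatase VE-PTP that removes phosphate from TEK, was between 942 and 1458 CPM in normoxia and between 479 and 567 CPM in hyperoxia. It fell without overlap (log2 fold change −1.16 ± 0.13, SE, with an edgeR adjusted p of 2.3e-05). Grb14, an adaptor that binds activated TEK, also fell (−1.11), as did Bmx, an endothelial kinase (−0.92). The genes that rose were the integrins Itgb1 (1.09) and Itga5 (1.62, with 1 to 82 counts in the hyperoxic libraries) and Svep1, an extracellular ligand of TIE1 (0.56). Foxo1, the transcription factor that TEK signalling restrains, was at a log2 fold change of 0.01 (−0.05 without hyperoxia replicate 1) and did not pass.

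Of 24 genes of VEGF receptor signalling 23 were tested, of which 3 rose and 1 fell (median −0.11). Nos3, endothelial nitric oxide synthase, was between 11.6 and 25.4 CPM in normoxia and between 39.3 and 117 CPM in hyperoxia. Its log2 fold change was 1.92 ± 0.24 (SE) at an edgeR adjusted p of 4.3e-05. The phosphatase Ptpn11 (0.76) and the kinase Map2k2 (0.58) also rose, and Prkcb, a protein kinase C, fell (−1.23). The other 19 genes, among them Plcg1 (−0.44), which KDR activates directly, did not pass.

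Of 16 genes that VEGF induces or that mark sprouting tip cells 13 were tested, and 2 rose and 5 fell (median 0.05). Ackr3, a scavenging chemokine receptor (2.36), and Apln, which encodes apelin (1.52), rose. The genes that fell were Cxcr4, a chemokine receptor of tip cells (−2.29), Esm1, a secreted proteoglycan of tip cells (−1.73), Igfbp3 (−1.91), the homeobox gene Hlx (−1.06) and the Notch ligand Dll4 (−0.67). Genes of this list thus passed in both directions. In the hyperoxic libraries counts were 4 to 9 for Cxcr4, 0 to 64 for Igfbp3 and 2 to 16 for Hlx. Cxcr4 passed the filter on low counts through the normoxic group, where it had 7 to 43 counts. With at least 10 counts required in every library, Cxcr4, Igfbp3 and Hlx were not tested, and 4 genes of this list passed.

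Of 16 inhibitors of angiogenesis 13 were tested, of which 4 rose and 1 fell (median −0.10). Col18a1, the collagen from which endostatin is cut, went from 16.0 ± 3.41 CPM across the 7 normoxic libraries (SD) to 84.8 ± 17.0 CPM across the 6 hyperoxic ones (SD), without overlap (log2 fold change 2.42 ± 0.18, SE, with an edgeR adjusted p of 3.0e-07). Thbs1, thrombospondin 1 (1.61), Spry4, a feedback inhibitor of receptor kinases (1.40), and the protease Adamts1 (0.92) also rose. Sema3g, a semaphorin that binds neuropilins, fell (−1.29). Of 14 targets of HIF, a list that includes Vegfa, 10 were tested, of which Slc2a1 (1.24) rose and Pdk1 (−0.68) and P4ha1 (−0.62) fell (median −0.17).

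**Figure D4:**
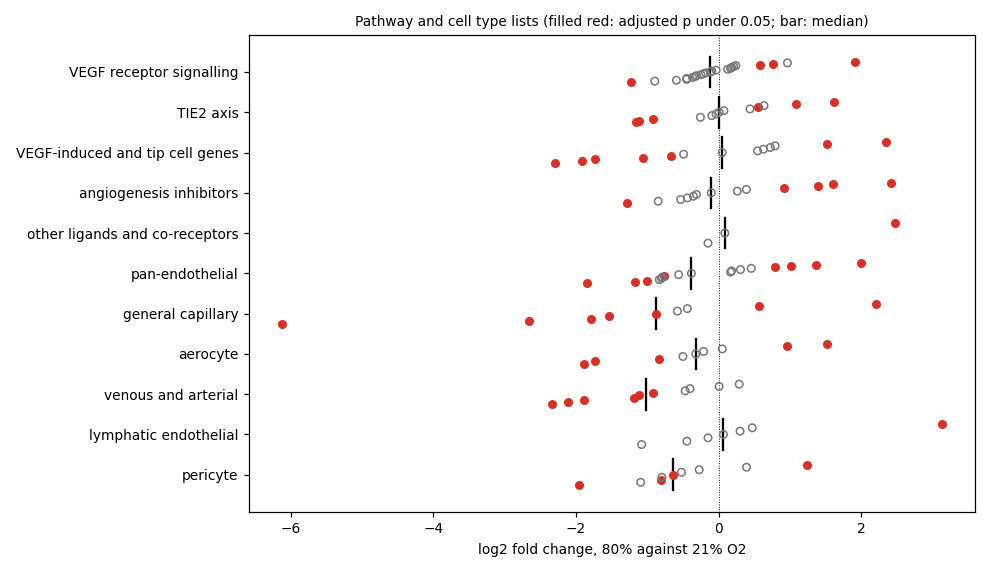
Log2 fold changes of hyperoxia against normoxia (horizontal axis) for each tested gene of 11 lists, filled red where the adjusted p was under 0.05 and open grey otherwise, with the median of each list as a black bar. The VEGF and TIE2 lists lie on both sides of 0, and the point near −6 is Aplnr, with 0 to 2 counts in each hyperoxic library, so that its value depends on the prior count.

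The endothelial markers beside which the receptors moved did not go in 1 direction. Of 18 pan-endothelial markers 17 were tested, and 4 rose and 4 fell (median −0.38). Mmrn2 (2.00), Egfl7 (1.37, or 0.84 without hyperoxia replicate 1), Eng (1.02) and Robo4 (0.79) rose, and the genes that fell were Clec14a, Calcrl (−1.85), Sox17 (−1.17) and Erg (−0.77). Cdh5, the cadherin of endothelial junctions, was at 219 ± 19.8 CPM across the 7 normoxic libraries (SD) and 249 ± 29.4 CPM across the 6 hyperoxic ones (SD) and did not pass (edgeR adjusted p = 0.307).
Of 9 tested markers of general capillary cells 2 rose and 5 fell, with Cd93 higher (2.20) and Kit (−2.65), Hpgd (−1.79) and the apelin receptor Aplnr (18 to 64 counts per normoxic and 0 to 2 per hyperoxic library) lower, and the sum of the list was 2130 to 2434 CPM in normoxia and 3232 to 6424 CPM in hyperoxia. The higher sum in hyperoxia was that of Cd93, since the sum of the other 8 markers was 1334 to 1662 CPM in normoxia and 763 to 1026 CPM in hyperoxia. Of 9 tested markers of aerocytes, the capillary cells of gas exchange, 2 rose (Prx, 0.96, and Apln) and 3 fell, among them Fibin (−1.73) and the endothelin receptor Ednrb (−1.89), with sums of 1716 to 2026 CPM and 860 to 1983 CPM. Among 10 markers of veins and arteries none rose and 6 fell, among them Slc6a2 (−1.88), Efnb2, which encodes ephrin B2 (−1.12), Hey1 (−2.33) and the connexin gene Gja4 (−2.12), with sums of 1026 to 1220 CPM and 630 to 1570 CPM. Counts in the hyperoxic libraries were 0 to 28 for Hey1 and 2 to 72 for Gja4. Of 7 lymphatic markers Lyve1 rose (3.14) and the other 6 did not pass, Prox1 among them (0.47). Of 9 tested pericyte markers Trpc6 rose (1.24) and Rgs5 (−1.95), Gucy1a3 (−0.64) and Cox4i2 (−0.80) fell, the last not without hyperoxia replicate 1 (−0.77, edgeR adjusted p = 0.0571), with sums of 226 to 300 CPM and 110 to 289 CPM. Rgs5 had 6 to 31 counts per normoxic and 2 to 11 per hyperoxic library, so that it passed the filter on low counts through the normoxic group. Of these 4 pericyte calls, 2 were left without any 1 of normoxia replicates 2, 3, 4, 5 and 7. The part of these cell types in the changes of the members was not tested.
Among cells outside the vessels, 7 of 8 alveolar type 2 markers fell and none rose, with the surfactant genes Sftpa1 at −1.69 and Sftpc at −2.72. Sftpb, also a surfactant gene, did not pass (−0.38, edgeR adjusted p = 0.622, and −0.11 without hyperoxia replicate 1). Of 8 tested leukocyte markers none rose and 3 fell, among them the pan-leukocyte gene Ptprc (−0.98). In both the fibroblast (8 tested) and alveolar type 1 (8 tested) lists some genes passed in each direction, with Pdgfra (1.19) and Col3a1 (0.57) higher and Npnt (−0.75) lower in the first and Akap5 higher and Rtkn2 (−0.95) lower in the second. Of the 2 alveolar type 1 calls, 1 was left in 9 of the 13 fits with 1 library left out, so that calls in both directions did not hold there. Of 6 tested platelet and erythroid markers Ppbp fell (−1.20), a call lost with at least 10 counts required in every library, and the sum of the list ran from 204 to 2178 CPM in normoxia and from 86.9 to 1804 CPM in hyperoxia.

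The genes whose pattern over the 13 libraries was most like that of a member were found by the root mean square difference of log2 CPM, after each gene was centred on its mean. That pattern includes the difference between the groups, so the direction of the genes picked was set in large part by the choice. For Tek they were Fbxo9 (0.15), Myzap (0.22) and Specc1l (0.22), each of which fell (log2 fold changes −0.77, −1.07 and −0.83). For Angpt2 they were Cd34 (0.25), Oraov1 (0.28) and Akap5 (0.30), each of which rose (1.70, 1.89 and 1.20). For Kdr they were Myo5c (0.12), Man2b1 (0.13) and Rc3h1 (0.15), and for Angpt1 Adrbk2 (0.16), Heca (0.16) and Atf7 (0.17). Of these last 6 genes Man2b1 passed the test (log2 fold change −0.40, edgeR adjusted p = 0.0306), and the others did not.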

How the data were processed

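RNA of whole lung from 7 normoxic and 6 hyperoxic samples was sequenced with Quant-seq. Reads were quantified by the authors through BioJupies with kallisto (build mm10 per the labels), and whole-number counts per gene symbol were deposited. The authors also deposited the log10 of CPM plus 1, which equals the value computed from the counts, and named limma 3.54.2 for their own tests. Samples were grouped by their titles, and 0 columns were left unmapped. The quasi-likelihood test of edgeR 4.0.16 in R 4.3.3 was run on the counts after filterByExpr and TMM scaling, with no covariate, over all 12496 genes. Each standard error is the log2 fold change divided by the root of its F statistic, and 95% intervals are not adjusted for multiple testing. Log2 CPM uses a prior count of 2, and log ratios to the endothelial markers a pseudocount of 0.5. Counts carry no molecular identifiers, so statements on counting error cover that error alone. In a library, 3 counts correspond to 0.661 to 1.87 CPM.

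The members, gene lists and tests were chosen with earlier results of these data known. Genes named are the 10 members, Vegfa, genes of a pathway list that passed (up to 4 for each by adjusted p, others as examples after their values were seen), markers of the cell type lists in the same way (1 result is not reported here), and the 3 genes most like Kdr, Tek, Angpt2 and Angpt1. Libraries of a group differed by more than sampling noise in all 36 pairs (chi-square per gene of at least 3.79). The alternatives were DESeq2 1.42.0, limma-voom (limma 3.58.1), limma on the log10 values (converted to log2), other scalings and filters, the replicate block, a term for the letter set, each library left out, a log2 fold change over 1.5, and other endothelial references.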

Additional observations from a re-analysis of the deposited data

Results flagged for a closer look

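Single libraries far from the rest of their group were sought with Dixon's ratio, the gap between the extreme library and its neighbour over the whole range, at the 95% critical value, in 50 group-wise tests of member levels, relative levels and ratios. About 1 in 20 such tests passes by chance, or 2.5 of the 50, and 4 passed. Tek in hyperoxia replicate 3, at 41.3 CPM, was below the other hyperoxic libraries (ratio 0.719). In the same library the ratio of Flt1 to Kdr counts was 1.32, above the others (ratio of the gap 0.832). The ratio of Tek to Tie1 counts was 8.14 in normoxia replicate 6, above the other normoxic libraries (ratio of the gap 0.824). Vegfc relative to the endothelial markers was at −9.87 on the log2 scale in hyperoxia replicate 1, below the other hyperoxic libraries (ratio 0.766).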

How the results depend on the processing

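The direction of Angpt2, Nrp1, Tek, Tie1 and Flt1 was kept under all 22 alternative fits of whole lung, and Angpt2 (log2 fold change 1.44 to 1.66), Nrp1 (−1.21 to −0.92) and Tek (−1.01 to −0.81) passed in each of them. Tie1 and Flt1 passed in all but the fit with the replicate block, where their log2 fold changes were −0.71 and −0.49 (edgeR adjusted p of 0.0584 and 0.107), against −0.70 and −0.49. The labels give both groups replicate numbers, but same-numbered libraries did not deviate together (correlations of −0.33 to 0.27 over 6 pairs, and in none was the normoxic library of the same number the best match). With the replicate block, 3 members passed, of which 2 were lower, and 1291 of all genes, 703 higher and 588 lower (10.4% of those tested), against 2819, 1473 and 1346 (22.6%). On the same 12 libraries with no block, which is the fit without normoxia replicate 7, 5 members and 2397 genes (19.4%) passed. With the log2 fold change over 1.5, 1 member passed and 0 of the lower ones, with 488 genes in all, 194 higher and 294 lower, and 32 of the 166 tested genes of the lists, against 71. With 1 library left out, 5 to 7 members passed, 1 to 2 higher and 4 to 5 lower. The 7 came without hyperoxia replicate 1, where Kdr and Vegfc passed too, as did 28.5% of all genes. Of all genes 2305 to 3633 passed, 1256 to 1934 higher and 1049 to 1699 lower. Relative to the endothelial markers 4 to 5 members differed with 1 library left out (22.4% to 28.2% of all genes), and 7 with Pecam1 left out of the sum (36.7%, a share computed after the data were seen).
Values of genes that had not passed changed sign. Vegfa, at 0.0035 in the reported fit, was at −0.0703 with at least 10 counts in every library, −0.0337 with a term for the letter set, −0.0852 with library size alone, −0.0864 with limma on the deposited values and −0.0188 with limma-voom, and between −0.14 and 0.16 with 1 library left out. Relative to the endothelial markers, Vegfb (0.30 as reported) was at −0.13 and Vegfc (0.41) at −0.0290 without Pecam1, Flt4 (−0.13) was at 0.0142 with the mean log2 CPM of the markers, between −0.30 and 0.11 with 1 library left out and 0.32 within the letters O to S, and Vegfb was at −0.00173 within B to M. The causes were not tested. Counts of genes called in a list moved by over 1.5 times with 1 library left out for alveolar type 1 (1 to 2, with 1 in most of these fits), lymphatic (2 without normoxia replicate 6), pericyte (2 to 3, against 4) and platelet and erythroid markers (3 without hyperoxia replicate 2). With the replicate block they moved for pan-endothelial (5 against 8), pericyte (2 against 4), alveolar type 1 (1 against 2) and platelet and erythroid markers (0 against 1). With at least 10 counts in every library no gene passed among the platelet and erythroid markers or the further ligands, and 4 against 7 did among the VEGF-induced genes. Platelet and erythroid calls were 2 with both limma fits, and lymphatic calls 2 with DESeq2. For Flt4, Vegfb and Vegfc, with 10 to 109 counts per library, counting alone gave coefficients of variation of 12.7% to 16.6%.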
